A study of Homo sapiens with 12 samples.

Results

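The change in gene expression with the EZH2 inhibitor tazemetostat, given without a second inhibitor, was measured in 3 libraries against 3 libraries of cells kept in its solvent, DMSO. These are 6 of the 12 libraries of the series, and every gene that passed a low-count filter belongs to the comparison, which left 14874 of the 23228 gene symbols in the files. Symbols near zero under DMSO, defined as a mean under 0.1 CPM (counts scaled to a common library size) over the 3 DMSO libraries, are described apart from the others. Among the 8033 symbols that met this limit, 5063 had 0 counts in all 3 DMSO libraries.

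The cells were SUM149PT, an established line from an inflammatory breast cancer, so the data describe 1 cell line in culture. In the tazemetostat group, cells received 5 µM of the drug from seeding on day -5 through passages on day -3 and day -1. The DMSO group was handled in the same way without the drug. On day 0 both groups were moved to medium with 2% serum, tazemetostat continued in its group, and polyadenylated RNA was collected 24 h later. The low serum is therefore shared by both groups, and the drug had been present since day -5. The other 6 libraries came from cells given 5 µM of the AKT inhibitor ipatasertib on day 0, without tazemetostat or with it (the combination), and serve below as a second setting for the same drug. The labels give replicate letters A, B and C without saying whether these were separate cultures. The p-values therefore refer to the spread among these libraries only, and that spread may be technical.

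EZH2 is the catalytic subunit of Polycomb repressive complex 2 (PRC2), which places methyl groups on lysine 27 of histone H3. The trimethylated form, H3K27me3, marks silent genes, many of them regulators of development whose promoters are rich in CpG dinucleotides. PRC1, a separate complex, reads this mark and compacts the chromatin. Tazemetostat competes with the methyl donor in the active site of EZH2, and existing marks are lost mainly as cells divide, so that exposures of several days are usual. The mark itself was not measured here, and the level of EZH2 mRNA is no check of the drug.

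The promoter windows of 6 genes on which the results below turn show how different the sequences at such genes were. B3GAT1 and IGFBP5 rose most among genes with a mean of at least 5 CPM, ZIC5, ZIC2 and KLK5 were among the near-zero genes that reached the highest levels, and THBS1 had the highest level among the 12 genes with the largest falls. Each window runs from 250 bases before to 50 bases after the annotated start in the direction of transcription, from RefSeq on GRCh38.p14, and the CpG dinucleotide is in capitals. For ZIC5, 3 windows are listed and the first was used.
B3GAT1 (chr11:134412193-134412492, minus strand, 42 CpG): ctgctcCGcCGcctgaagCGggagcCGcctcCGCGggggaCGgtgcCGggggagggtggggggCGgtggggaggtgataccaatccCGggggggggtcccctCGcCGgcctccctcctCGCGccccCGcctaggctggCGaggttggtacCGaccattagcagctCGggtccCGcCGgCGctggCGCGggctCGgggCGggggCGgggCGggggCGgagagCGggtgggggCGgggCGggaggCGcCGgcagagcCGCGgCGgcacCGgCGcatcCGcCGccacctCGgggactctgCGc
IGFBP5 (chr2:216695500-216695799, minus strand, 9 CpG): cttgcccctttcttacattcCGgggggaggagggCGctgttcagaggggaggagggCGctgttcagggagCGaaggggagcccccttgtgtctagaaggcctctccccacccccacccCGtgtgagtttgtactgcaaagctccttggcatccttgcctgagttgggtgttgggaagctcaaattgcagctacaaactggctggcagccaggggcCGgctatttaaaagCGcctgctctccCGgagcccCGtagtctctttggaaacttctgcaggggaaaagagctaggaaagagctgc
ZIC5 (chr13:99971860-99972159, minus strand, 33 CpG): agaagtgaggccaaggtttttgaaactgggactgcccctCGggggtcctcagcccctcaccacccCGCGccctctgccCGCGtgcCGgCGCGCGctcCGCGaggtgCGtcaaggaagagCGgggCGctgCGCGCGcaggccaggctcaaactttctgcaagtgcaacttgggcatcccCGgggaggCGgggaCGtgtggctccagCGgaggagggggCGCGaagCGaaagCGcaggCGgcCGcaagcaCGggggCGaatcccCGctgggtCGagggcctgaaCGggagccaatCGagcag
ZIC2 (chr13:99981534-99981833, plus strand, 35 CpG): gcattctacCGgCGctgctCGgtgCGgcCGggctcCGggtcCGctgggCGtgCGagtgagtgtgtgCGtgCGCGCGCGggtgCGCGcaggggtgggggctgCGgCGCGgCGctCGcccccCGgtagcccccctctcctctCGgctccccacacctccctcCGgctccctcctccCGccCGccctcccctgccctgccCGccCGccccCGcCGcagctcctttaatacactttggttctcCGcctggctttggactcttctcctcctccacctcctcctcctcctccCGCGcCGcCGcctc
KLK5 (chr19:50952989-50953288, minus strand, 7 CpG): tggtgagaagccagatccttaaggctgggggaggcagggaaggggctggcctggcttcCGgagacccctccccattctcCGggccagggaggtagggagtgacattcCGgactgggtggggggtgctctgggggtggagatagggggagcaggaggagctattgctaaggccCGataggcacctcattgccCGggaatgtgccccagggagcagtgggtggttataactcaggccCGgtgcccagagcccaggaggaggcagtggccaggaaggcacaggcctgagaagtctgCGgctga
THBS1 (chr15:39580829-39581128, plus strand, 29 CpG): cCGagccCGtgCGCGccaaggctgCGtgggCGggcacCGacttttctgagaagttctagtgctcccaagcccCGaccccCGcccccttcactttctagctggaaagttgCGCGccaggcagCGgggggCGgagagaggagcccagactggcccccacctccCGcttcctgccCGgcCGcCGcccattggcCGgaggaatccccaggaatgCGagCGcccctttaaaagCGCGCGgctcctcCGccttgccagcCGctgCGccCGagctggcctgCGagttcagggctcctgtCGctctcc
The letters CG were counted on 1 strand, which gives the count for both because the motif is its own reverse complement. The windows of B3GAT1, ZIC2, ZIC5 and THBS1 held 42, 35, 33 and 29 CpG, and those of IGFBP5 and KLK5 held 9 and 7. Of the 27305 windows of this length in the table, 41.2% held at least 20. The genes that rose thus included windows on both sides of this count, while THBS1, the 1 gene here that fell, lay above it. No factor or mark is implied by the count. No composition of the whole groups is given, because only 68.2% of the near-zero genes that were raised and 59.7% of the genes lowered over 2-fold could be matched to a window.

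Gene counts per library ranged from 32470808 to 44924160 under DMSO and from 43226082 to 49970540 with tazemetostat. A gene at 0 counts in a library can thus be stated to lie below 3 counts, or 0.0600 to 0.0924 CPM depending on the library. These limits cover counting error only. A principal component analysis of the 6 libraries put 78.2% of the variance of log2 CPM on its first axis, which separated the groups. Tazemetostat A stood apart from the other libraries of its group, with a chi-square statistic per degree of freedom of 20.1 and 18.2 against tazemetostat B and C, compared with 3.32 between B and C and 3.31 to 6.99 among DMSO pairs. The counts of genes called, the named genes, the near-zero genes, the symbols detected and the interactions were recomputed without it. The gene lists and the bins by level were not. All 8 epithelial markers were present, with a summed level of 3427 to 3585 CPM under DMSO and 2922 to 3230 with tazemetostat. Of the 9 leukocyte markers 7 were under 1 CPM and MS4A1 was at 0. CD68 made up most of their sum. Endothelial markers summed to 1.23 to 1.54 CPM under DMSO and 1.63 to 2.09 with tazemetostat. The receptor genes ESR1, PGR and ERBB2 summed to 85.0 to 87.1 CPM under DMSO and 70.6 to 78.0 with tazemetostat, nearly all of it ERBB2, while PGR had 0 counts under DMSO. Levels are per cell mixture: fewer cells with a transcript and less of it per cell cannot be told apart in bulk RNA.

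Tazemetostat changed many genes, and the large changes were mostly rises. In edgeR's quasi-likelihood test at an adjusted p of 0.05, 6849 of 14874 genes (46%) were called, 3737 higher (25.1%) and 3112 lower (20.9%). Called genes higher by more than 2-fold numbered 995 (6.69%), and those lower by more than 2-fold numbered 159 (1.07%). The counts in this paragraph include genes near zero under DMSO, which passed the filter through another group. They make up 215 of the 995 and 0 of the 159. By DMSO level, 478 and 56 were at 0.1 to 1 CPM and 258 and 55 at 1 to 10 CPM. At 10 to 100 CPM there were 42 and 21, and at 100 CPM and over 2 and 27. Beyond 4-fold there were 399 higher and 13 lower genes, and beyond 8-fold 170 and 3. The values of the 3 tazemetostat and 3 DMSO libraries did not overlap for 8281 genes (55.7%). The split of all calls was not stable. It was 54.6% higher as reported, 69.6% with scaling by total counts, 50.8% with DESeq2, and under 50% when DMSO B or any of the tazemetostat libraries was left out (47.5% without tazemetostat A). The excess of rises among changes over 2-fold was present in all of these, with 945 higher and 173 lower without DMSO B and 981 higher and 185 lower without tazemetostat A.

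**Figure D1:**
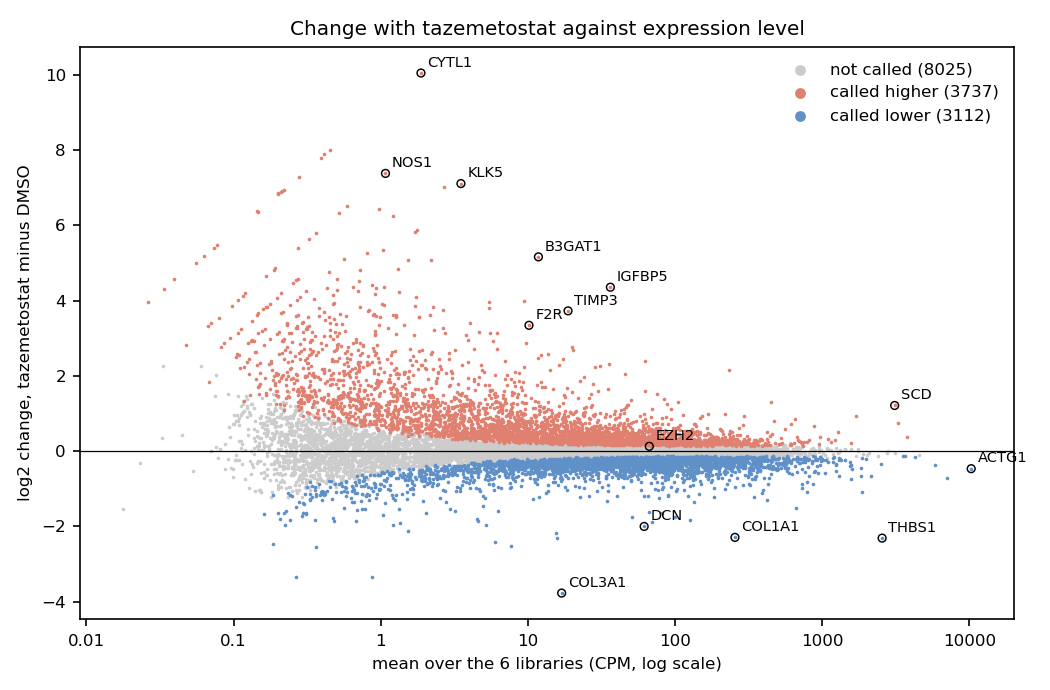
Each point is a gene tested, with its mean over the 6 libraries in CPM on a log axis and its log2 change, tazemetostat minus DMSO, on the vertical axis (red, called higher; blue, called lower; grey, not called). The largest rises are at low levels, while THBS1, COL1A1 and ACTG1 fell at high levels. For genes at 0 under DMSO, such as CYTL1, the fitted change depends on the prior count and is not a bound.

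The shares of genes that rose and fell differed with the starting level. To keep the starting level free of the noise in the DMSO libraries, genes were binned by their mean in the 3 ipatasertib libraries, which are in neither group. Of the 200 genes tested with under 0.1 CPM, 89.5% were called higher and 0.5% lower. They passed the filter mostly through groups in which they are high, so this bin describes which genes were tested. In the bins from 0.1 to 1 and from 1 to 10 CPM, 27.8% and 30.7% were higher and 5.98% and 14.1% lower. From 10 to 100 CPM, 22.9% were higher and 24.1% lower, and at 100 CPM and over, 16.8% were higher and 33.8% lower. The median log2 change went from 0.26 in the bin from 0.1 to 1 CPM to -0.06 at 100 CPM and over. Genes in the lower part of the bin from 0.1 to 1 CPM can also have passed the filter through another group in which they are high. How much this adds to the difference between bins was not tested. Total-count scaling moved the median of all genes tested from 0.02 to 0.09.

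More genes were detected with tazemetostat. At an equal depth of 32470808 counts, the expected number of symbols with at least 1 count was 16984, 16809 and 16832 in DMSO A, B and C. It was 17314, 17319 and 17407 in tazemetostat A, B and C. Every tazemetostat library was above every DMSO library, with means of 16875 ± 95.2 and 17347 ± 52.3 (SD, n = 3) and a difference of 472 symbols. The two-sided exact permutation test gave p = 0.1, the smallest value that 3 against 3 libraries can reach. Counting symbols with at least 3 counts, the difference was 489.

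Tazemetostat raised 170 symbols from near zero to at least 10 counts in each of its 3 libraries. The reverse, from at least 10 counts in each DMSO library to a mean under 0.1 CPM with tazemetostat, was met by 3 symbols (ADAMTSL1, KCNE3 and ZCCHC5). DMSO B and C were shallower than every tazemetostat library, so the limit of 10 counts is easier to reach with tazemetostat. Of the 170, 12 had 0 counts over the 3 DMSO libraries, 30 had 1 to 3 and 128 had more. Together they held 10.1, 8.03 and 9.68 CPM in DMSO A, B and C and 129, 128 and 127 CPM in tazemetostat A, B and C. Each of them still reached only a low level with the drug, with a median of 0.496 CPM, a range of 0.222 to 6.97 CPM and 26 genes at 1 CPM or more. As a group selected for being high in the treated libraries, they had to differ, and no test over them is given. Of the 170, 151 passed the low-count filter. A symbol this low under DMSO passes it through another group in which it is high. The calls among near-zero symbols are therefore not counted as a result of their own, though the counts over all genes tested include them.

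KLK5, a secreted serine protease of the kallikrein family known from the shedding of skin cells, reached the highest level among the near-zero genes. It had 2, 2 and 1 counts in DMSO A, B and C and 324, 272 and 351 counts in tazemetostat A, B and C. No library of a group approached the other group, and the pooled counts differed by 149-fold (95% counting interval 63.5 to 459). Its relative KLK7 went from 1, 0 and 4 counts to 86, 84 and 107, a 43.5-fold difference (18.4 to 135). IGF2BP1, an RNA-binding protein of the fetal period that binds IGF2 mRNA, had 1, 1 and 2 counts under DMSO and 247, 216 and 261 with tazemetostat. That is 142-fold (55.2 to 523) over the pooled libraries.

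The neighbouring genes ZIC5 and ZIC2 encode zinc finger transcription factors of the early nervous system. ZIC5 had 2, 1 and 3 counts under DMSO and 141, 155 and 179 with tazemetostat, 62.1-fold higher (28.3 to 170). ZIC2 had 4, 0 and 2 counts under DMSO and 129, 145 and 189 with tazemetostat, 60.5-fold higher (27.6 to 166). The 2 genes lie on opposite strands, with the windows printed above, and stood at similar counts in each group. CYTL1, a small secreted protein named for its resemblance to cytokines, was at 0 in every DMSO library and had 143, 154 and 217 counts with tazemetostat. With the floor of 3 counts over the DMSO group, it was at least 134-fold higher.

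NOS1, the neuronal nitric oxide synthase, had 0, 1 and 0 counts under DMSO and 97, 76 and 120 with tazemetostat, a ratio of 229.9 whose counting interval runs from 40.9 to 9111 because it rests on 1 DMSO count. The ubiquitin ligase RNF182 went from 3 to 326 counts over the 3 libraries, a ratio of 85.3 (28.9 to 416). TMEM98, a membrane protein, went from 2 to 263, a ratio of 103 (28.3 to 856). GABRQ, a subunit of GABA receptors, went from 9 to 401 counts (35.0-fold, 18.2 to 77.0), BPIFB4, of the family of lipid-binding BPI proteins, from 9 to 341 (29.7-fold, 15.5 to 65.6), and the kinase SYK, best known from B cells, from 10 to 273 (21.4-fold, 11.5 to 45.2). In all 12 of these genes every tazemetostat library lay above every DMSO library, as the selection favours.

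**Figure D2:**
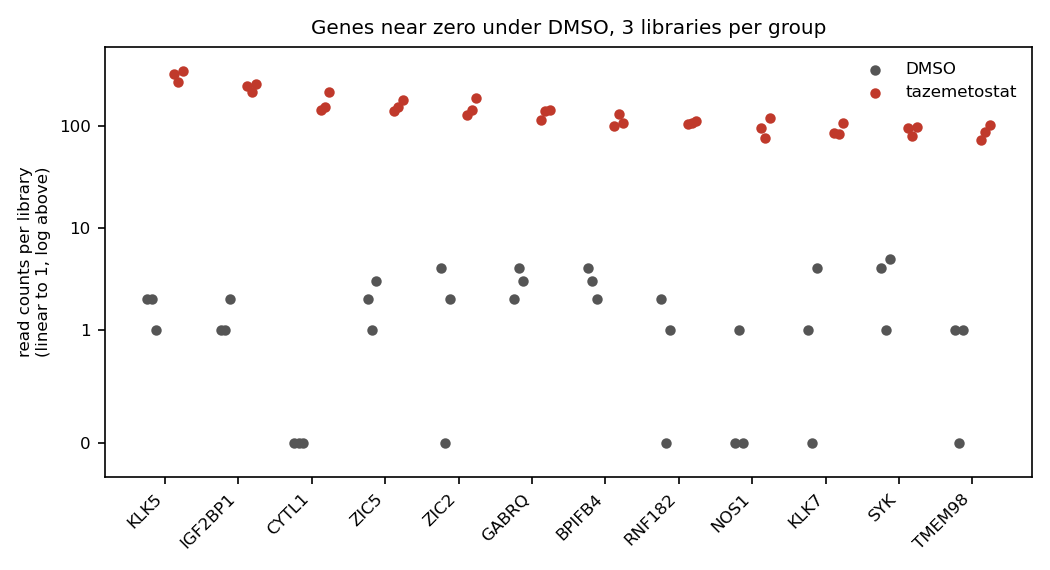
Read counts per library of the 12 near-zero genes with the highest mean under tazemetostat (grey, 3 DMSO libraries; red, 3 tazemetostat libraries), on an axis that is linear to 1 and logarithmic above. DMSO counts are between 0 and 5 and tazemetostat counts between 73 and 351.

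The 12 genes at 0 in all DMSO libraries included several that are known from embryonic patterning. Besides CYTL1 they were TSHZ3, DLL1, SHH, FOXF1, HLA-DMB, FOXA2, GFRA1, UBE2QL1, EPB41L3, LOC439949 and CRABP1. SHH, the ligand of the hedgehog pathway, had 33, 35 and 39 counts in tazemetostat A, B and C, at least 28.0-fold higher against the floor. DLL1, a ligand of Notch receptors, had 42, 21 and 51 counts (at least 29.8-fold), and the zinc finger factor TSHZ3 had 46, 42 and 34 (at least 31.9-fold). The forkhead factors FOXF1 and FOXA2 had 75 and 58 counts over the 3 libraries, at least 19.6-fold and 15.2-fold higher. Other regulators of development, chosen after their values were seen, were MSX2 (4 to 216 counts over the group), FOXP2 (6 to 187), HAND1 (1 to 140) and IRX6 (4 to 131). For all of these the counts with tazemetostat stayed under 100 per library, CYTL1 excepted.

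The kallikrein genes lie side by side on 1 chromosome arm and were looked at together after KLK5 and KLK7 had been seen to rise. In their order in RefSeq on GRCh38.p14 they are KLK1, KLK15, KLK3, KLK2, KLK4 and then KLK5 to KLK14. KLK15, KLK3, KLK2 and KLK4, the last of which borders KLK5, had 0 counts in all 6 libraries. KLK1 and every gene from KLK5 to KLK14 had more counts with tazemetostat. KLK10, the most abundant, had 42, 32 and 25 counts under DMSO and 411, 317 and 415 with tazemetostat, a log2 change of 3.18 (SE 0.16, adjusted p = 4.53e-12). KLK6 had 6, 6 and 11 counts and then 141, 120 and 176, a change of 3.87 (SE 0.25, adjusted p = 2.90e-10). KLK9, KLK14 and KLK1 rose from 6, 6 and 5 counts over the group to 121, 76 and 121. KLK8, KLK11, KLK12 and KLK13 were too low to be tested or to be ranked, at 35, 39, 8 and 5 counts with tazemetostat against 2, 9, 0 and 0. Reads shared between such related genes could have been split by the counting.

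**Figure D3:**
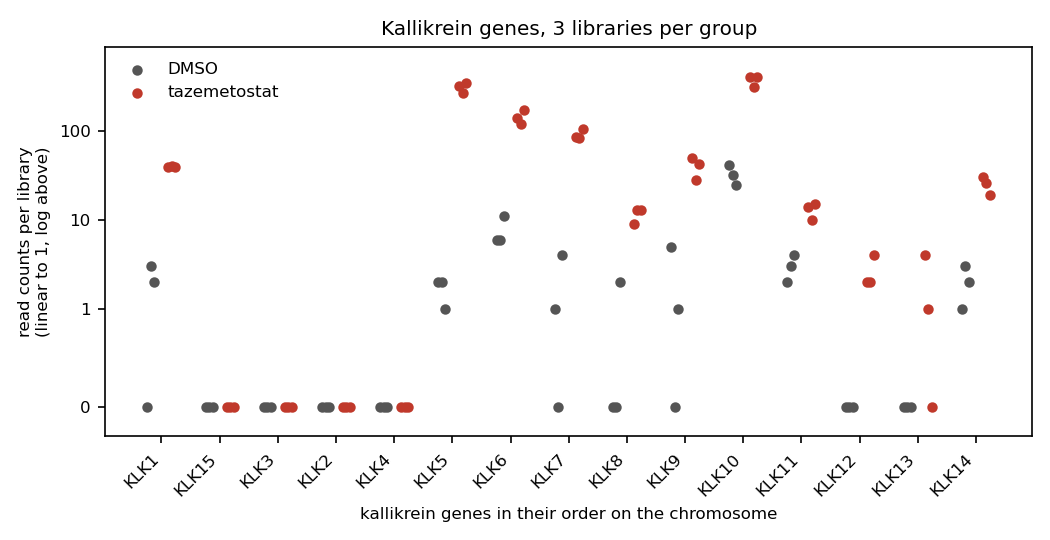
Read counts per library of the kallikrein genes in chromosome order (grey, 3 DMSO libraries; red, 3 tazemetostat libraries), on an axis that is linear to 1 and logarithmic above. KLK15, KLK3, KLK2 and KLK4 are at 0 throughout, while KLK5 to KLK11 and KLK14 are higher in every tazemetostat library.

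Beyond the kallikreins, few of the raised genes were neighbours. Of the 154 that could be placed in RefSeq gene order, 9 lay in 4 runs of adjacent genes, which were ATRNL1 with GFRA1, ZIC5 with ZIC2, PSG3 with PSG8, and ADRA2B, ASTL and DUSP2. PSG3 and PSG8 are near-identical copies whose reads cannot be assigned with certainty. A gene and an antisense partner cannot be told apart either, since the strand setting of the counting is not given in the sources used here.

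Several near-zero genes were members of the lists. HOXB9, a factor of positional identity along the body axis, had 1, 0 and 0 counts under DMSO and 28, 25 and 34 with tazemetostat (ratio 68.3, counting interval 11.9 to 2727). HOXD13, which patterns the distal limb, had 3, 1 and 2 counts and then 60, 54 and 53 (21.8-fold, 9.83 to 60.4). Of 10 HOXB genes 4 were tested (HOXB3, HOXB6, HOXB7 and HOXB9), and of 9 HOXD genes 2 (HOXD8 and HOXD13). These 6 were called higher, but they had too few counts under DMSO to pass the filter there and passed it through groups in which they are high, so their number is no measure of the clusters. The other 6 HOXB genes had at most 7 counts in any of the 6 libraries. At the HOXA genes, 1 of 8 rose (HOXA13, which entered the test in the same way, from 0.211, 0.210 and 0.131 CPM to 0.862, 1.30 and 0.984, log2 change 2.46, SE 0.33, adjusted p = 5.42e-06) and 7 were not called. The median of the HOXA genes was -0.04 and turned positive with total-count scaling. At the HOXC genes, which were the ones with no member near zero under DMSO, 0 of 9 rose and 2 fell slightly, HOXC9 by 0.28 and HOXC13 by 0.28 on the log2 scale (adjusted p = 0.00915 and 0.00394). Over all genes tested, 25.1% rose and 20.9% fell.

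HLA class II genes, which present peptides to helper T cells and are silent in most epithelial cells, were also found among the near-zero genes. HLA-DRA had 1, 2 and 1 counts under DMSO and 35, 35 and 42 with tazemetostat, 21.97-fold higher (8.35 to 82.0). HLA-DMB, at 0 under DMSO, had 22, 19 and 18 counts, at least 15.4-fold higher. CD74, the chaperone of class II molecules, went from 6 to 77 counts over the group, 10.1-fold higher (4.42 to 28.3). Of the 12 class II and CIITA genes 10 were near zero under DMSO, and 6 of these passed the filter through groups in which they are high. All 6 were called higher, which the filter favours, and the 2 other genes tested were not called. CIITA, the master activator of these genes, was at 13, 13 and 11 counts under DMSO and 29, 25 and 20 with tazemetostat, a log2 change of 0.65 that did not pass (adjusted p = 0.107). The leukocyte markers CD3E, CD3D, MS4A1 and LYZ had at most 5 counts in any of the 6 libraries, and PTPRC had 10, 11 and 12 counts under DMSO and 13, 13 and 20 with tazemetostat. Of the 9 leukocyte markers 4 were tested, of which 1 rose and 2 fell (25% and 50%). The sum over all 9, mostly CD68, was 364 to 418 CPM under DMSO and 278 to 316 with tazemetostat. Of 17 HLA class I genes and genes of peptide loading, all above near zero, 1 was higher and 7 lower (5.88% and 41.2%, against 25.1% and 20.9% of all genes tested). HLA-B rose from 64.2, 72.6 and 68.6 CPM to 106, 100 and 98.4, while TAP2, a subunit of the peptide transporter, fell from 214, 221 and 218 to 148, 136 and 135.

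Among genes with a mean of at least 5 CPM over the 6 libraries, the largest rise was that of B3GAT1, the glucuronyltransferase that makes the HNK-1 (CD57) carbohydrate. It stood at 0.680, 0.571 and 0.654 CPM in DMSO A, B and C and at 24.7, 22 and 22.2 in tazemetostat A, B and C. The groups were 35.8-fold apart, a log2 change of 5.16 (SE 0.16, adjusted p = 8.33e-15). IGFBP5, a secreted binding protein for insulin-like growth factors, stood at 3.05, 3.49 and 3.69 CPM under DMSO and 66.2, 69.2 and 72.7 with tazemetostat. This 20.5-fold difference is a log2 change of 4.36 (SE 0.11, adjusted p = 7.02e-16). The kinesin KIF26A rose by 4.0 (SE 0.18), MYOCD, the myocardin coactivator of serum response factor, by 3.97 (SE 0.23), and the small heat shock protein HSPB8 by 3.8 (SE 0.16). MYOCD was at 0.234, 0.962 and 0.850 CPM under DMSO and 9.73, 11.2 and 9.62 with tazemetostat.

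TIMP3, an inhibitor of metalloproteinases held in the matrix and often described as silenced by EZH2, rose from 2.06, 2.89 and 3.07 CPM to 32.3, 34.8 and 37.4, a log2 change of 3.73 (SE 0.12, adjusted p = 1.49e-14). F2R, the thrombin receptor PAR1, rose from 1.5, 2.04 and 1.99 CPM to 17.1, 20 and 18.4, a change of 3.34 (SE 0.12). In both genes the lowest tazemetostat library was well above the highest DMSO library. The next were FHL1, a LIM protein of muscle (3.15), the muscarinic receptor CHRM3 (3.14), IGF2BP3 (2.92), a relative of IGF2BP1, CASP14, the caspase of cornifying skin (2.86), and PPP2R2C, a regulatory subunit of phosphatase 2A (2.76). These 12 genes were chosen among called genes for the size of their rise. None had an overlap between groups, which such a choice favours and which held for 55.7% of all genes tested.

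The largest falls were dominated by genes of the extracellular matrix. COL3A1, the chain of type III collagen, stood at 28.8, 33.8 and 32.3 CPM in DMSO A, B and C and at 1.96, 2.58 and 2.37 in tazemetostat A, B and C. It was 13.7-fold lower, a log2 change of -3.77 (SE 0.11, adjusted p = 4.82e-15). COL1A1, of type I collagen, went from 446, 429 and 398 CPM to 89.0, 81.0 and 89.5, a change of -2.29 (SE 0.09, adjusted p = 2.07e-13). THBS1, the secreted glycoprotein thrombospondin 1 that activates latent TGF-beta, went from 4383, 4228 and 4148 CPM to 821, 913 and 833, a change of -2.31 (SE 0.06, adjusted p = 7.02e-16). In each of these 3 genes the groups lay far apart.

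The small leucine-rich proteoglycans, which bind collagen fibrils, fell as well. LUM (lumican) fell from 9.66, 9.14 and 11.6 CPM to 1.86, 1.81 and 1.95, DCN (decorin) from 90.0, 100.2 and 106 to 23.9, 26.0 and 23.9, and EPYC (epiphycan) from 129.8, 159.5 and 177 to 40.4, 49.4 and 47.9. Their log2 changes were -2.43, -2.0 and -1.76. CREB3L1, a membrane-bound transcription factor that switches on collagen genes, fell by 2.30 on the log2 scale. SPARC, a collagen-binding glycoprotein, fell by 1.98, HAS2, the hyaluronan synthase, by 1.89, ODZ2, the adhesion protein teneurin 2, by 1.82, and SCG2, a secretogranin of secretory granules, by 2.17. In each of the genes named here the groups did not overlap, which the choice of the largest falls favours and which held for 55.7% of all genes tested.

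The lists show how far this went through the matrix genes. Of 27 collagen chains tested, 19 fell and 5 rose (70.4% lower, against 20.9% of all genes tested), with a median log2 change of -0.79 against 0.02 over all genes tested. COL5A2 fell by 1.45, and COL1A2, at a low level, from 0.750, 0.331 and 0.785 CPM to 0.163, 0.0930 and 0.0602. The chain that rose most was COL17A1, a transmembrane collagen of hemidesmosomes in basal epithelium, from 5.91, 5.86 and 5.72 CPM to 20.4, 18.2 and 18.9 (log2 change 1.72, SE 0.09, adjusted p = 8.28e-12). Of 26 enzymes and factors of collagen synthesis and crosslinking, 18 fell and 2 rose. LOXL2, a lysyl oxidase, fell by 0.99 and LEPRE1, a prolyl 3-hydroxylase, by 0.97, whereas their relatives LOXL4 and LEPREL2 rose by 2.18 and 1.62. Of 32 other matrix proteins, 17 fell and 9 rose, or 17 and 8 of the 31 that were not near zero under DMSO. FBLN1 (fibulin 1) was among those that rose, up by 2.14 from 1.64, 1.80 and 2.03 CPM to 7.89, 8.16 and 7.97. Changes of over 4-fold occurred in both directions within these lists.

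The fibroblast markers moved with the matrix genes, and they share DCN, LUM and COL1A2 with these lists. Their summed level was 162 to 188 CPM under DMSO and 81.7 to 88.9 with tazemetostat. Of the 6 tested, 4 fell and 1 rose (S100A4), where 20.9% of all genes tested fell and 25.1% rose. The defining markers PDGFRA, PDGFRB and THY1 had at most 9 counts in any of the 6 libraries. FAP, a protease of activated fibroblasts, was lower in every tazemetostat library, at 49.7, 53.7 and 56.4 CPM under DMSO and 38.8, 45.4 and 42.4 with tazemetostat (log2 change -0.33, SE 0.09, adjusted p = 0.00439). The share of falls was not particular to fibroblast markers: of the 8 epithelial markers, 5 fell and 1 rose (62.5% and 12.5%, beside 66.7% and 16.7% of the fibroblast markers).

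Most of the listed actin cytoskeleton genes fell as well. Of 20 genes of contractility and serum response factor targets tested, 14 fell and 2 rose (70% and 10%, against 20.9% and 25.1% of all genes tested), with a median of -0.47. TAGLN, an actin-bundling protein, fell by 1.06 and TGFB1I1, an adaptor of focal adhesions, by 0.98, while ACTA2, smooth muscle actin, rose by 0.59 from 1.95, 1.99 and 1.67 CPM to 2.96, 2.60 and 2.89. The 3 most abundant genes that fell were ACTG1, FLNA and ACTB. ACTG1 went from 12330, 11860 and 11660 CPM to 9264, 8322 and 8317, a log2 change of -0.47 (SE 0.06, adjusted p = 1.24e-06), and FLNA, which crosslinks actin filaments, from 8967, 8958 and 8182 to 5578, 5246 and 5088, a change of -0.71 (SE 0.08). Of 17 target genes of YAP and TEAD, which respond to tension on the cytoskeleton, 11 fell and 2 rose (64.7% and 11.8%). CYR61 fell from 368, 378 and 386 CPM to 205, 194 and 202 and the tissue factor gene F3 from 967, 1016 and 1025 to 554, 587 and 574, whereas NT5E, the ecto-enzyme CD73, rose from 26.2, 28.8 and 30.6 to 53.5, 59.1 and 55.5. Total-count scaling changed the sign of a list median only for the HOXA and the axon guidance genes.

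**Figure D4:**
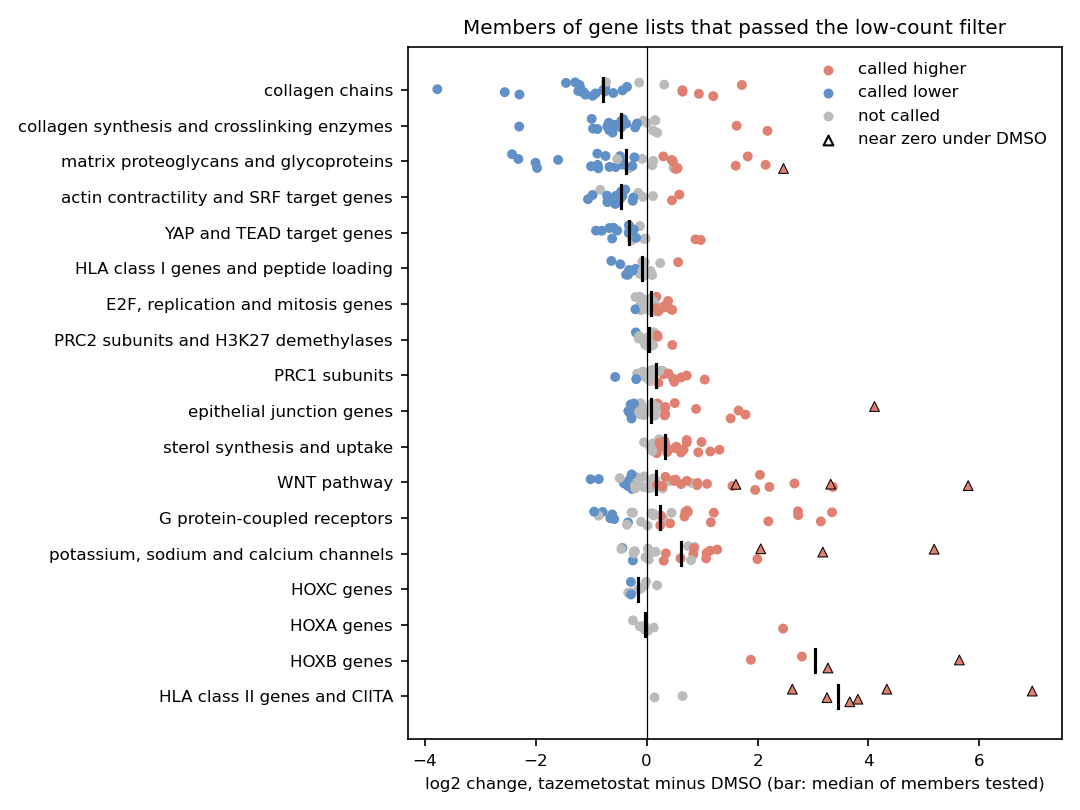
Log2 change, tazemetostat minus DMSO, of the members of 18 gene lists that passed the low-count filter (red, called higher; blue, called lower; grey, not called; triangles, near zero under DMSO; bars, medians). Collagen, matrix, actin and YAP target lists lie mostly to the left of 0, sterol synthesis to the right, and the HOXB and HLA class II members that were called higher lie at the far right.

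Sterol synthesis and uptake was the list with the highest share of members that rose among lists with at least 10 tested. Of 24 genes tested, 19 rose and 0 fell in the edgeR test (79.2% higher, against 25.1% of all genes tested), with a median of 0.34. INSIG1, which holds the sterol sensor in the endoplasmic reticulum, rose from 56.9, 62.6 and 61.9 CPM to 141, 155 and 154 (log2 change 1.31, SE 0.07, adjusted p = 6.85e-12). HMGCS1, an early enzyme of the pathway, rose from 41.5, 40.4 and 41.6 to 77.0, 85.8 and 82.3, and the carrier STARD4 from 6.73, 6.64 and 7.42 to 13.8, 15.9 and 16.2. SCD, the desaturase that makes monounsaturated fatty acids, was among the 3 most abundant genes that rose, from 1649, 1942 and 2030 CPM to 4239, 4432 and 4354 (log2 change 1.21, SE 0.06, adjusted p = 1.31e-11). The others were FTH1, the ferritin heavy chain that stores iron (2539, 2375 and 2429 to 4316, 3953 and 3949 CPM, 0.73), and the hair keratin KRT81 (3291, 3365 and 3142 to 4728, 3907 and 4025 CPM, 0.37).

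The target enzyme and its partners changed little at the mRNA level. EZH2 stood at 62.0, 60.8 and 69.0 CPM under DMSO and 67.4, 71.7 and 70.2 with tazemetostat, so the groups overlapped, and its change of 0.13 (SE 0.07) was not called (adjusted p = 0.148). It was called with total-count scaling (0.20, adjusted p = 0.0239) and without tazemetostat A and combination B (0.13, adjusted p = 0.0317). Of 15 PRC2 subunits and H3K27 demethylases tested, 3 rose and 1 fell (20% and 6.67%, against 25.1% and 20.9% of all genes tested). Each called change was under 0.5 on the log2 scale. C17orf96, an accessory subunit also named EPOP, rose by 0.46 (SE 0.10, adjusted p = 0.000609), while the calls of EED (0.19), AEBP2 (0.20) and PHF19 (-0.19) were lost in at least 4 of the 6 fits that left out a DMSO or tazemetostat library. Of 20 PRC1 subunits, 8 rose and 2 fell (40% and 10%). CBX2, which binds H3K27me3, rose most, from 17, 16.3 and 14.7 CPM to 36.9, 31.0 and 31.5 (1.05, SE 0.11, adjusted p = 4.50e-07), and CBX6, of the same family, fell by 0.57. RNF2, the ubiquitin ligase of the complex, rose by 0.62 and PCGF5 by 0.72.

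Genes described elsewhere as silenced by EZH2 in cancer cells did not move as 1 group. Of 30 such genes 23 were tested, with 13 higher and 6 lower (56.5% and 26.1%, against 25.1% and 20.9% of all genes tested) and a median of 0.40. The cell cycle inhibitor CDKN1C rose from 0.281, 0.601 and 0.360 CPM to 0.978, 0.791 and 1.41 (1.39, SE 0.32, adjusted p = 0.00156). FBXO32, a ubiquitin ligase of muscle wasting, went the other way, from 80.8, 78.1 and 76.0 CPM to 21.8, 23.6 and 24.1 (-1.76, SE 0.07, adjusted p = 9.29e-14). CDH1, the gene of E-cadherin, was slightly lower, at 326, 335 and 330.4 CPM under DMSO and 283, 296 and 279 with tazemetostat (-0.21, SE 0.05, adjusted p = 0.00220). CDKN2A and CDKN2B, the classical Polycomb targets among cell cycle inhibitors, had 0 counts in all 6 libraries, as did MSMB and WIF1.

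The lists related to growth moved unevenly. CDKN1A, the inhibitor p21, rose from 28.5, 28.9 and 26.9 CPM to 74.1, 64.8 and 59.8 (1.24, SE 0.10, adjusted p = 5.68e-09), and the cyclins CCNE1, CCNE2 and CCND1 rose by 0.81, 0.49 and 0.45. Of 15 G1 genes 8 rose and 2 fell. Of 34 genes of replication and mitosis, 9 rose and 1 fell, which is 26.5% and 2.94% beside 25.1% and 20.9% of all genes tested, with PCNA at 0.46 and RRM2 at 0.32. In the axis of insulin-like growth factors, 7 of 14 rose and 6 fell. IGFBP2 rose from 6.00, 5.23 and 5.10 CPM to 38.2, 33.3 and 33.4 (2.67, SE 0.10) and the insulin receptor INSR from 3.14, 3.70 and 3.07 to 11.1, 10.7 and 11.5 (1.75, SE 0.10), while IGFBP4, the most abundant binding protein named, fell by 0.62.

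Signalling lists moved in both directions, where 25.1% of all genes tested rose and 20.9% fell. Of 35 genes of the TGF-beta, BMP and activin pathways, 15 rose and 16 fell. The ligand GDF15 rose from 0.164, 0.271 and 0.196 CPM to 2.31, 2.09 and 1.69 (3.27, SE 0.25), the BMP antagonist NOG by 2.82, the ligand BMP6 by 2.19 and the activin antagonist FST by 2.02. Of 46 WNT pathway genes, 20 rose and 9 fell, or 17 and 9 of the 43 that were not near zero under DMSO. The members that rose most were antagonists and receptors at low levels, NKD2 (1 to 97 counts over the group), FZD10 (3.36), SFRP2 (3.32) and SFRP4 (2.67). Of 31 G protein-coupled receptors 14 rose and 6 fell, with the chemokine receptors CXCR4 and CXCR7 both up by 2.73, from 0.236 to 1.52 CPM and from 0.126 to 0.882 CPM in the means. GDF15, NOG, FZD10, CXCR4 and CXCR7 had too few counts under DMSO to pass the filter there and passed it through other groups in which they are higher. So did NKD2 and SFRP2, which were near zero. Counts without the near-zero genes still include such genes as FZD10, so the effect of the filter is not removed from them. Of 27 ion channel genes 13 rose and 2 fell, or 10 and 2 of the 24 that were not near zero under DMSO. KCNH2, CACNB4 and SCN4B, among those with the largest changes, had means under 1.5 CPM with tazemetostat. KCNH2 and CACNB4 were near zero under DMSO and passed the filter through other groups in which they are higher. For KCNH2 the mean was 0.127 CPM with tazemetostat and 0.574 CPM in the combination. The filter thus favours the calls of these 2 genes. Of 30 axon guidance genes 13 rose and 13 fell, with the ephrin receptor EPHA7 up by 1.85 and the receptor NRP2 down from 129, 142 and 141 CPM to 65.0, 66.3 and 66.0; their median was -0.03 and turned positive with total-count scaling.

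Epithelial identity genes changed in both directions, and the shares called among junction genes were close to those of all genes tested (25.1% higher and 20.9% lower). Of 20 basal genes 7 rose and 6 fell (35% and 30%). KRT5 fell from 642, 646 and 610 CPM to 520, 462 and 458 (-0.40, SE 0.06, adjusted p = 4.58e-05), and TP63, the factor of basal epithelium, rose from 13.8, 15.3 and 18.4 to 25.1, 30.3 and 28.2 (0.82, SE 0.10). Of 23 luminal genes 11 rose and 5 fell (47.8% and 21.7%), or 10 and 5 of the 22 that were not near zero under DMSO. The epithelial factor EHF was up by 0.97. Of 34 junction genes 10 rose and 8 fell (29.4% and 23.5%), or 9 and 8 of the 33 that were not near zero under DMSO. The connexin GJB2 was up by 1.78, from 12, 12.4 and 13.3 CPM to 40.2, 45.5 and 44.1. VIM (vimentin), a filament protein of mesenchymal cells, fell from 1103, 1038 and 1047 CPM to 504, 493 and 511 (-1.08, SE 0.06, adjusted p = 5.62e-11). Among 14 factors of epithelial-mesenchymal transition, 5 rose and 4 fell, or 4 and 4 of the 13 that were not near zero under DMSO. ZEB2 fell by 1.22 and SNAI1 by 1.04, whereas HMGA2 rose by 0.69.

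Of the cytokines and chemokines, 11 of 29 rose and 10 fell (37.9% and 34.5%, against 25.1% and 20.9% of all genes tested). Of the 28 that were not near zero under DMSO, 10 rose and 10 fell. CSF1, the growth factor of macrophages, fell from 99.6, 101 and 99.97 CPM to 33.2, 31.5 and 33.9 (-1.61, SE 0.08, adjusted p = 3.04e-12), and the alarmin IL33 rose from 26.3, 28.6 and 29.4 to 64.9, 72.6 and 77.7 (1.35, SE 0.10). CCL20, which attracts lymphocytes, rose by 1.49. Of 25 metalloproteinases and TIMP inhibitors 7 rose and 10 fell (28% and 40%), with MMP9, the gelatinase, down by 1.28. Of 23 neuronal and synaptic genes tested of 40, 11 rose and 6 fell (47.8% and 26.1%), or 10 and 6 of the 22 that were not near zero under DMSO. NPTX1, a synaptic pentraxin, rose from 8.37, 8.90 and 9.45 CPM to 28.1, 27.2 and 29.4 (1.67, SE 0.10). Of 10 muscle genes tested of 30, 2 rose and 1 fell (20% and 10%, both under the shares of all genes tested), and all 3 changes were under 1 on the log2 scale. Of 30 cancer-testis genes 28 were near zero under DMSO and 3 were tested, of which PRAME and STK31 passed the filter through groups in which they are high. PRAME had 3 counts over the DMSO group and 55 over the tazemetostat group. Of 15 imprinted genes 7 rose and 3 fell (46.7% and 20%). GRB10, an adaptor that dampens insulin signalling, was up by 2.22 from 3.38, 3.61 and 2.91 CPM to 16, 15.8 and 14.7.

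Tazemetostat added to ipatasertib offers the same drug contrast in 6 libraries that share none with the comparison above. Of 14874 genes, 5823 (39.1%) were called in the combination against ipatasertib, 3248 higher (21.8%) and 2575 lower (17.3%). Of the 3737 genes that rose with tazemetostat alone, 2418 (64.7%) also rose there, which is 74.4% of the 3248, and 55 fell. Of the 3112 that fell, 1655 (53.2%) also fell, 64.3% of the 2575, and 39 rose. For rises over 2-fold, 899 of 995 (90.4%) were called in the same direction, and for falls over 2-fold 99 of 159 (62.3%). None of the 995 or the 159 was called in the opposite direction. The 995 include the 215 genes near zero under DMSO, whose calls the filter favours. Without tazemetostat A and combination B, the libraries that stand apart, 2411 of 4400 rises (54.8%) and 1951 of 4288 falls (45.5%) were shared. As a description, the 2 sets of log2 changes had a Pearson correlation of 0.867 across the 14874 genes, which are not independent replicates.

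Many of the near-zero genes were also higher in that setting. Of the 170, 114 were also near zero with ipatasertib, and 100 had at least 10 counts in every combination library in spite of the lower depth there. Of the 151 that were tested, edgeR called 140 higher and 0 lower in the combination against ipatasertib. The shares over all genes tested were 21.8% and 17.3%. Genes this low without tazemetostat pass the filter through groups in which they are high, so these calls are not counted as a result. From near zero with ipatasertib to at least 10 counts in every combination library went 99 symbols, and 1 went the other way. KLK5 had 1, 2 and 0 counts with ipatasertib and 158, 114 and 179 in the combination. SHH and TSHZ3, at 0 in all 3 ipatasertib libraries, had 18, 17 and 32 and 20, 44 and 35 counts in the combination. B3GAT1 rose there by 5.03 (5.16 without ipatasertib), TIMP3 by 4.37 (3.73) and F2R by 3.89 (3.34). COL3A1 fell by 3.79 and COL1A1 by 2.02 on the log2 scale.

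Some genes responded by different amounts with and without ipatasertib. The interaction, the log2 change of combination against ipatasertib minus that of tazemetostat against DMSO, was called for 539 genes (3.62%), 278 positive (1.87%) and 261 negative (1.75%). This number rests on few libraries: it was 2443 without combination B, 1046 without tazemetostat A, 4766 without both, and 243 to 329 when any of ipatasertib A, ipatasertib B, combination C, DMSO A, DMSO B, tazemetostat B or tazemetostat C was left out. IGFBP5 rose by 6.04 with ipatasertib present and 4.36 without it, an interaction of 1.69 (SE 0.17, adjusted p = 5.41e-06), and stood at 304 CPM in the combination against 69.3 with tazemetostat. TNFRSF19, a receptor of the TNF family, rose by 2.06 with ipatasertib and had a change of 0.25 without it that was not called (adjusted p = 0.0561), an interaction of 1.80 (SE 0.15, adjusted p = 8.44e-07). EGR1, an immediate early factor, had 1.43 (SE 0.15), THBD, the thrombomodulin gene, 1.42 (SE 0.14), and the lipid receptor S1PR1 1.36 (SE 0.17), the last with a fall of 0.95 without ipatasertib. THBS1 fell less with ipatasertib, by 1.36 instead of 2.31 (interaction 0.95, SE 0.08), and FBXO32 by 0.65 instead of 1.76. The interactions of these 7 genes were called under all 17 settings tried.

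**Figure D5:**
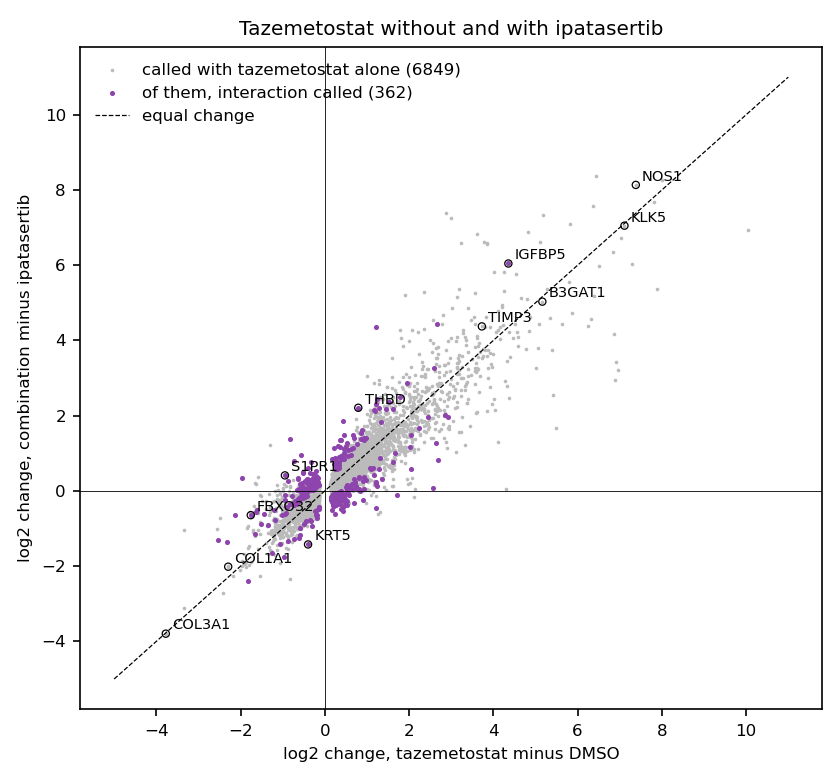
Log2 change with tazemetostat alone (horizontal) and with tazemetostat added to ipatasertib (vertical) for the 6849 genes called with tazemetostat alone; purple marks the 362 of them with a called interaction, and the dashed line marks equal change. IGFBP5, THBD, S1PR1 and FBXO32 lie above the line and KRT5 below it, while B3GAT1 and COL3A1 lie near it.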

How the data were processed

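Polyadenylated RNA of 12 libraries was counted per gene by the authors, who deposited raw counts for each library. The tools named are STAR, SAMtools, HTSeq and DESeq2, and the build is hg19, per the submitters' processing notes. For tool versions, gene annotation and strand, the sources used here give nothing. The 5 summary lines that name no gene held 29.8% to 38.6% of a library's reads and were left out. Replicate letters did not pair the samples (same-letter correlations of deviations 0.0195, -0.00412 and 0.0017).

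Counts were analysed in R 4.3.3 with edgeR 4.0.16. After filterByExpr with the 4 groups, all 12 libraries entered 1 quasi-likelihood fit with TMM scaling and 1 coefficient per group (biological coefficient of variation 0.0645). The contrast was tazemetostat minus DMSO, with Benjamini-Hochberg adjustment over all 14874 genes tested and a threshold of 0.05. CPM are counts scaled to a common library size after TMM. Folds of near-zero genes compare pooled counts, with exact 95% counting intervals that cover counting error only. On data simulated for this contrast the fit recovered 50 of 50 genes raised 2-fold and 49 of 50 lowered 2-fold. It recovered 46 of 50 raised 1.5-fold and 46 of 50 lowered 1.5-fold, and called 9 of 14073 unchanged ones. The simulation changed few genes, all of them well expressed, and gave every gene the same coefficient of variation. No simulated library stood apart as tazemetostat A does, so these rates do not carry over to low-count genes or to such a library.

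Genes named were the 12 largest rises and 12 largest falls at a mean of at least 5 CPM, the 12 near-zero genes with the highest level, up to 5 called members per list with the largest changes, 6 reference genes (EZH2, CDKN1C, CDKN2A, CDH1, KRT5 and VIM), the 5 largest interactions and the 3 most abundant called genes in each direction. Members and the 33 gene lists were chosen with earlier results of these data known, so lists are described by counts without a set test. Alternatives were DESeq2 1.42.0, total-count scaling, no filter, only the 6 libraries compared, a replicate block, a test against a 1.5-fold change, other near-zero limits, and leaving out libraries. Some genes that this rule selects are not reported here.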

Additional observations from a re-analysis of the deposited data

Results flagged for a closer look

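For 33 named genes the change with tazemetostat differed between cells without and with ipatasertib, by the interaction test of the edgeR fit. The values below are the log2 change in the combination against ipatasertib minus the log2 change with tazemetostat against DMSO, and a positive value means a more positive change with ipatasertib. Tazemetostat A and combination B stand apart from their groups and the number of interactions depends on them, with 4766 called without both against 539. All 33 were called without both, and 20 were called under all 17 settings tried. The call was lost under at least 1 setting for IGF2BP3, CASP14, EZH2, CDH1, NPTX1, COL5A2, NT5E, CYR61, OVOL1, MEST, CCNE1, INSIG1 and IDI1.

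Among the genes with the largest rises and falls, the interaction was 1.69 for IGFBP5, -0.95 for IGF2BP3, -0.84 for CASP14, 0.95 for THBS1 and -0.59 for ODZ2. Of the reference genes, EZH2 had -0.44, CDH1 0.30 and KRT5 -1.02. TNFRSF19 had 1.80, EGR1 1.43, THBD 1.42 and S1PR1 1.36. FBXO32 had 1.11, CSF1 1.1, GJB2 0.72, OVOL1 0.85, COL5A2 0.85, HOXC13 0.60, NT5E 0.44 and CYR61 0.31. Negative values were found for IL33 (-1.03), MEST (-1.15), FST (-0.84), TP63 (-0.76) and NPTX1 (-0.66).

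Negative values were also found for genes of the cell cycle and of sterol synthesis. CCNE1 had -0.47, CCNE2 -0.61, E2F8 -0.55, CDK1 -0.62 and RRM2 -0.61. RRM2 and CDK1 rose without ipatasertib and fell with it, by 0.29 (adjusted p = 0.00102) and 0.24 (adjusted p = 0.0199) on the log2 scale. CCNE2 and E2F8, at -0.12 each, were not called with ipatasertib, and CCNE1 rose there by 0.33. CDKN1A, also of the cell cycle, had an interaction of 0.20 that was not called (adjusted p = 0.515). The interactions of PCNA (-0.45, adjusted p = 0.0596), TOP2A (-0.34, adjusted p = 0.0926) and CCND1 (-0.06, adjusted p = 0.742) were not called either. INSIG1 had -0.44, HMGCS1 -0.69 and IDI1 -0.49, and these 3 genes rose in both settings. For STARD4 (-0.20, adjusted p = 0.446) and SC5DL (-0.05, adjusted p = 0.869), of the same sterol list, the interaction was not called. The 6 libraries with ipatasertib held 22355242 to 39001543 counts and the 6 without it 32470808 to 49970540, and the part of depth in these values was not tested.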

How the results depend on the processing

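No log2 change of a named gene reversed under any setting. Of 6849 genes called, 1094 were called by the test against a 1.5-fold change, which asks for a larger change. Leaving out 1 library gave 5504 to 7212. The fit with the replicate block called 7124 genes and changed the call of none of the 181 named genes tested, and same-letter libraries did not correlate best with each other. Of the named calls, DESeq2 lost AEBP2 and EED, and total-count scaling lost PHF19. Leaving out 1 library lost, in at least 1 case each, GAS2, AEBP2, PHF19, EED, ACTL8, TNNI1, CXCL10 and STK31, while EZH2 and TNFRSF19 became called with total-count scaling and without tazemetostat A and combination B. The test against a 1.5-fold change lost 55. The number of near-zero genes raised, 170, was 71 with a limit of 0.05 CPM and 351 with 0.2 CPM, 373 with at least 5 counts and 72 with at least 20 counts in every tazemetostat library, beside 1, 20, 28 and 0 in the reverse direction. Leaving out 1 library gave 166 to 212. The interaction count of 539 was 928 with DESeq2, 905 with no filter, 4766 without tazemetostat A and combination B, and 243 to 2443 when 1 library was left out. The cause of these shifts was not tested. Without a library, the difference in symbols detected was 439 to 526 (two-sided exact permutation p = 0.2 in each case, the smallest this design allows). Depth limits the near-zero genes, where a few DMSO counts set the fold.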
